A study of Mus musculus with 22 samples.

Results

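Ribosome biogenesis factors are the proteins that make, modify, cut and fold ribosomal RNA and assemble it with ribosomal proteins. The set described here holds 39 genes, chosen by name for their role in this process and found by gene symbol in the count table. All 39 were in the table of 15448 genes, and all 39 were among the 14785 genes that passed the filter on low counts and were tested. They were measured by sequencing of polyA RNA from the livers of 22 wild-type male CD2F1 mice, a hybrid mouse strain that accepts the C26 colon carcinoma, a transplanted tumour used to study cancer cachexia. The control mice (CT, n = 6) had a sham injection and are labelled vehicle, the C26 mice (n = 8) received C26 cells and no TDCA, and the C26-TDCA mice (n = 8) received C26 cells and an intraperitoneal dose of 10 mg/kg taurodeoxycholic acid (TDCA) each day. TDCA is a taurine-conjugated secondary bile acid formed with the help of gut bacteria. The ages of the mice, the time after tumour injection and the vehicle given to the C26 mice are not stated in the labels. No group received TDCA without a tumour, so that TDCA can be compared only among tumour-bearing mice.

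Ribosome production starts in the nucleolus, where RNA polymerase I copies the ribosomal DNA into a long precursor. Small nucleolar ribonucleoproteins (snoRNPs) then modify the precursor, those of the box C/D class by methylating riboses and those of the box H/ACA class by turning uridines into pseudouridines. Separate sets of factors cut and fold the parts that become the small and the large ribosomal subunit, and the transcription factor Myc is known to raise the transcription of many of these genes in growing cells. In liver the process is known for its activity during growth and regeneration. The libraries report the messenger RNAs of the factors; ribosomal RNA, its precursors and snoRNAs were not analysed here. In the GENCODE M21 annotation, 7 of the 39 genes hold 21 snoRNA genes within their bounds, among them Nop56 with 5, Nop58 with 4 and Ncl with 3.

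The promoters of the members were searched for the E-box CACGTG, which Myc binds with its partner Max, and for CCGGAAGT, a core that ETS-family factors bind, each on both strands. RefSeq windows on GRCm38.p6, from 250 bases before to 50 bases after the annotated start, were found for 33 of the 39 genes. CACGTG stood in 8 of these 33 (24.2%), beside 11.4% of the 10752 tested genes with a window and 8.09% of all 27025 genes with one. It lay after the start in 7 of the 8 and before it in Nop2. CCGGAAGT also stood in 8 of 33 (24.2%), beside 8.56% of the tested genes and 4.31% of all genes. The motif of the factor YY1 was in 0 of 33, beside 2.25% of the tested genes. The letters below surround the E-boxes of Nop2 and of the 4 members with an E-box whose RNA was called different between C26 and CT, with the motif in capitals and the strand of the gene read 5′ to 3′.
Nop2 (chr6:125131811-125131840, plus strand): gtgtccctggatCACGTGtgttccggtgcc
Mybbp1a (chr11:72441347-72441376, plus strand): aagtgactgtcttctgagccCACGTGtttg
Tsr1 (chr11:74898092-74898121, plus strand): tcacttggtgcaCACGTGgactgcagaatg
Nle1 (chr11:82908355-82908384, minus strand): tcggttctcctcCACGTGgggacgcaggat
Utp20 (chr10:88826765-88826794, minus strand): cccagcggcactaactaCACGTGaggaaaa
The RNAs of Mybbp1a, Tsr1 and Nle1 were higher in C26 than in CT, that of Utp20 was lower, and those of the other 4 genes with an E-box, Nop2, Utp4, Pes1 and Wdr43, were not called. The ETS-type core is shown for the 4 members that hold it and were higher in C26, with ACTTCCGG being the same core read from the opposite strand.
Polr1e (chr4:45018622-45018651, plus strand): cctagaatgtcACTTCCGGtttttgagtcc
Nhp2 (chr11:51619739-51619768, plus strand): cacttgaaaacCCGGAAGTgatgtcggagg
Tsr1 (chr11:74898068-74898097, plus strand): ctcgggtccgcCCGGAAGTagagttcactt
Polr1c (chr17:46248069-46248098, minus strand): ccacttgacgtCCGGAAGTgaaggacgtgg
The remaining 4 genes with this core, Gar1, Ebna1bp2, Noc2l and Utp4, were not called in C26 against CT. No lower member with a window held it, but only 5 of all 39 members were lower (12.8%), beside 14 higher (35.9%). Whether the core goes with a direction was not tested. A match of letters is a description of the window and shows neither binding nor its absence.

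The libraries held 16.5 to 28.3 M counts, so that 3 counts corresponded to 0.10 to 0.18 CPM (counts per 1000000, scaled by the TMM factors used throughout). All members but Myc were above 2.2 CPM in every mouse. Tumour-bearing livers differed from CT in composition of the RNA: the 20 most abundant genes took 21.6 to 21.9% of counts in CT, 33.1 to 39.9% in C26 and 34.8 to 39.2% in C26-TDCA, and mitochondrial genes took 5.59 to 6.18%, 2.92 to 4.15% and 3.21 to 3.89%. The 9 hepatocyte markers summed to 60151 to 68356 CPM in CT and 28304 to 37091 CPM in C26 (3 of 9 genes higher, 3 lower), while 11 of 11 Kupffer cell markers were higher (297 to 344 CPM summed in CT, 487 to 746 in C26). Summed markers of sinusoidal endothelium lay at 248 to 298 CPM in CT and 317 to 557 in C26 (7 of 9 genes higher), those of stellate cells at 276 to 354 and 361 to 561 (6 of 9 higher, 2 lower), those of monocytes and neutrophils at 34.3 to 46.6 and 46.6 to 125 (6 of 8 higher) and those of cholangiocytes at 19.3 to 32.6 and 239 to 763 (2 of 5 higher). T and NK cell markers, with 3 of the 7 listed genes in the table, stayed at or below 2.54 CPM summed in every mouse (1 of 3 lower). Markers of B and plasma cells lay at 3.78 to 6.13 CPM in CT and 2.45 to 5.66 in C26 (1 of 6 lower). Proliferation markers ranged from 26.2 to 31.3 CPM in CT and from 25.1 to 41.2 in C26 (4 of 10 higher, 1 lower). In C26-TDCA, summed markers lay at 30853 to 37790 CPM for hepatocytes, 590 to 777 for Kupffer cells, 442 to 553 for sinusoidal endothelium and 469 to 614 for stellate cells. In C26-TDCA against C26, 1 of 9 hepatocyte and 1 of 9 stellate cell markers were called and 0 in each other list, beside 1.97% of all genes. No listed marker in the table was at 0 in all mice of a group. The part of these shifts in the results on the members was not tested, and in bulk tissue fewer cells of a type cannot be told apart from less RNA per cell.

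In C26 against CT, the first comparison, 14 of the 39 members were higher, 5 were lower and 20 were not called, at an adjusted p under 0.05 in the quasi-likelihood F test of edgeR fitted over all genes. Of all genes tested, 28.9% were called higher and 29.2% lower (58.1% in either direction), beside 35.9% and 12.8% of the members. The split depends on the scaling, because counts scaled by library totals alone moved the median of all genes from -0.0031 to -0.34 on the log2 scale and then gave 4 members higher and 23 lower, while upper-quartile factors gave 18 higher and 3 lower. Every fold change below is therefore relative to the bulk of genes that TMM places at 0. The differences were small: the median log2 fold change of the members was 0.06 and the median size without sign was 0.22, beside 0.40 over all genes. Only 3 members, Nop58, Bysl and Rrp12, were called beyond a log2 fold change of 0.5 in edgeR's test against that size, all higher, where 13.4% of genes were beyond it upward and 11% downward (24.4% in all). In 6 members every C26 mouse was above every CT mouse, and in 2 every C26 mouse was below (14.2% and 15.3% of all genes).

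**Figure D1:**
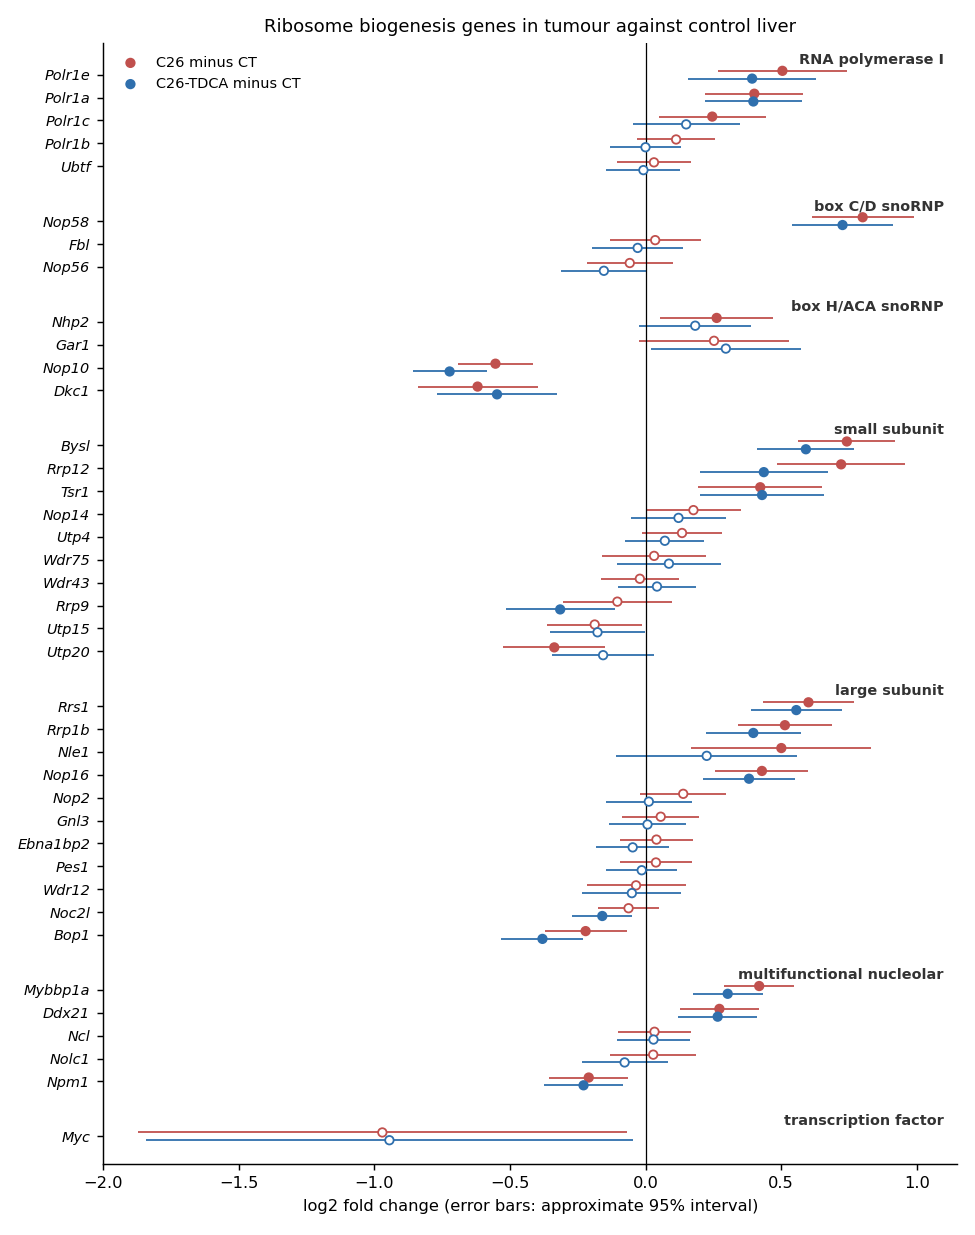
Log2 fold change of each of the 39 members against CT, grouped by role, for C26 (red) and C26-TDCA (blue), with approximate 95% intervals; filled points passed an adjusted p under 0.05 and open points did not. Nop58, Bysl and Rrp12 lie farthest to the right for C26, Dkc1 and Nop10 lie to the left, and Myc has by far the widest interval. Library totals in place of TMM would move the points to the left, with the median of all genes then at -0.34 (C26) or -0.30 (C26-TDCA).

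RNA polymerase I came first in the order of the process, and 3 of its 5 genes were higher in C26 than in CT, with none lower. Polr1a, the largest catalytic subunit, ranged from 16.9 to 23.9 CPM in CT (median 19.6) and from 23.4 to 30.9 CPM in C26 (median 26.1). The groups overlapped slightly at the highest CT mouse, and the log2 fold change was 0.40 (standard error, SE, 0.09; edgeR adjusted p = 0.000603). Polr1e, a subunit linked to initiation, was expressed at a lower level, with 3.39 to 4.61 CPM in CT (median 3.79) and 4.25 to 6.99 CPM in C26 (median 5.41). It rose by 0.50 (SE 0.12; edgeR adjusted p = 0.000921), again with a small overlap between the groups. With library totals the differences of Polr1a (0.06) and Polr1e (0.17) were not called, and Polr1a was at 0.25 once a trend with transcript length and GC was removed. Polr1c, a subunit shared with RNA polymerase III, was called at 0.25 (SE 0.10; edgeR adjusted p = 0.0397), a call that was lost when any of C26 mice 01, 02, 03, 05 and 06 or CT mice 01, 05 and 08 was left out (0.19 to 0.25) and a sign that turned with library totals (-0.10). Polr1b, the other catalytic subunit, was at 0.11 (SE 0.07), not called, and was called higher with upper-quartile factors (0.18) and lower with library totals (-0.23). Ubtf, which binds the ribosomal DNA and recruits the polymerase, was the most abundant of these genes at 59.2 ± 8.22 CPM in CT (SD, n = 6) and 60.5 ± 3.53 CPM in C26 (SD, n = 8), a difference of 0.03 (SE 0.07) that was not called; it was called lower with the trend removed (-0.20) and with library totals (-0.31).

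Among the 3 core proteins of box C/D snoRNPs, Nop58 stood alone. Nop58 (ENSMUSG00000026020, GRCm38 chr1:59684971-59719044, plus strand), a scaffold of these particles, ranged from 11.5 to 18.0 CPM in CT (median 13.6), from 22.6 to 28.3 CPM in C26 (median 24.7) and from 18.9 to 27.3 CPM in C26-TDCA (median 23.2). Every tumour-bearing mouse was above every CT mouse. The log2 fold change was 0.80 (SE 0.10, a 1.74-fold rise; edgeR adjusted p = 1.2e-07) in C26 and 0.73 (SE 0.10, 1.65-fold; edgeR adjusted p = 5.2e-07) in C26-TDCA, the largest positive difference of the 39 members in both. Nop56, which pairs with Nop58 on the same RNA, ranged from 16.4 to 23.9 CPM in CT (median 21.3) and from 16.2 to 22.5 CPM in C26 (median 20.04). The groups overlapped throughout, and the difference was -0.06 (approximate 95% interval -0.22 to 0.10; edgeR adjusted p = 0.56). Fbl, the methyltransferase of the particle, was at 23.6 ± 1.61 CPM in CT (SD, n = 6) and 24.3 ± 3.61 CPM in C26 (SD, n = 8), with a difference of 0.04 (SE 0.09) that was not called. The counts of both are less certain than that of Nop58, since 70.4% of the 50-base stretches of the Fbl transcript and 37.6% of those of Nop56 also occur in transcripts of other genes. Per kb of transcript, Nop58 in CT stood at 8.42 ± 1.41 CPM per kb (SD, n = 6), below Nop56 (10.9 ± 1.48) and Fbl (19.8 ± 1.35), and in C26 at 14.7 ± 1.33 (SD, n = 8), above Nop56 (10.5 ± 1.01).

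The 4 core proteins of box H/ACA snoRNPs, which also belong to telomerase, moved apart: 2 were lower, 1 was higher and 1 was not called. Dkc1 (ENSMUSG00000031403, chrX:75095854-75109777, plus strand), the pseudouridine synthase, ranged from 11.8 to 15.5 CPM in CT (median 13.7), from 6.51 to 10.8 CPM in C26 (median 9.0) and from 7.68 to 12.5 CPM in C26-TDCA (median 9.02). All C26 mice were below all CT mice, and 1 C26-TDCA mouse reached the CT range. Dkc1 fell by 0.62 on the log2 scale (SE 0.11; edgeR adjusted p = 4.74e-05) in C26, the largest drop among the called members. Nop10 (ENSMUSG00000027133, chr2:112261926-112263269, plus strand), a small protein that holds Dkc1 in its active form, ranged from 19.7 to 23.1 CPM in CT (median 22.1), from 13.3 to 18.3 CPM in C26 (median 14.5) and from 12.1 to 15.3 CPM in C26-TDCA (median 13.0). No tumour-bearing mouse reached the lowest CT mouse. The difference of Nop10 was -0.55 (SE 0.07; edgeR adjusted p = 2.75e-07) in C26 and -0.72 (SE 0.07; edgeR adjusted p = 3.58e-09) in C26-TDCA, the latter beyond the 0.5 threshold.

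Nhp2, which binds the RNA in the same particle, went the other way, from 10.4 to 13.2 CPM in CT (median 11.1) to 11.3 to 17.6 CPM in C26 (median 13.4). The groups overlapped, and its call (0.26, SE 0.11; edgeR adjusted p = 0.0365) was lost when any of C26 mice 04 and 06 or CT mice 01, 05, 06 and 08 was left out (0.20 to 0.26), while library totals turned its sign (-0.081). Gar1, the remaining core protein, was at 4.09 ± 0.663 CPM in CT (SD, n = 6) and 4.88 ± 0.747 CPM in C26 (SD, n = 8), a difference of 0.25 (SE 0.14) that was not called.

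**Figure D2:**
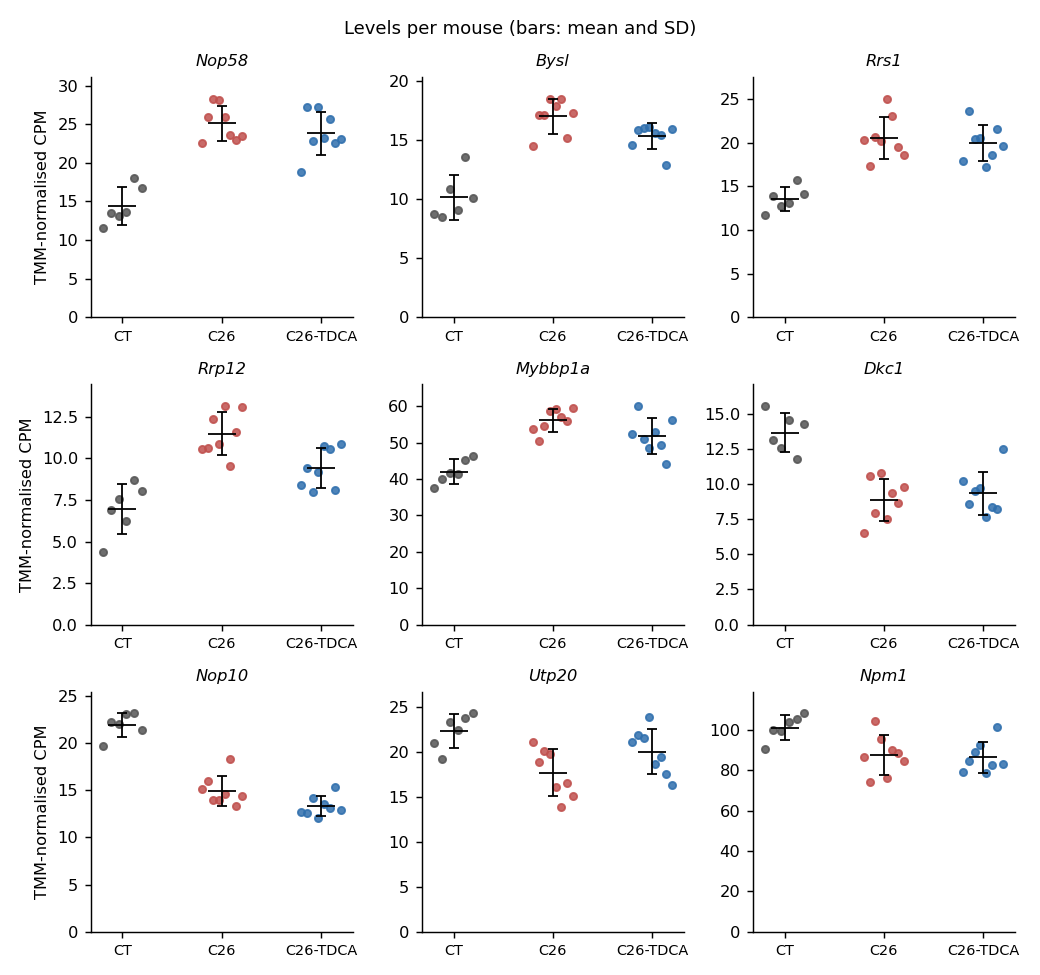
TMM-normalised CPM of 9 members in each mouse of CT (n = 6, grey), C26 (n = 8, red) and C26-TDCA (n = 8, blue), on axes that start at 0, with the mean and SD of each group in black. All C26 mice are above all CT mice for Nop58, Bysl, Rrs1, Rrp12 and Mybbp1a and below them for Dkc1 and Nop10, while Utp20 and Npm1 overlap.

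Of the 10 genes for the small subunit, 3 were higher in C26, 1 was lower and 6 were not called. Bysl (ENSMUSG00000023988, chr17:47599331-47611492, minus strand), an assembly factor of the small subunit, ranged from 8.53 to 13.6 CPM in CT (median 9.62), from 14.5 to 18.5 CPM in C26 (median 17.2) and from 12.9 to 16.1 CPM in C26-TDCA (median 15.8). All C26 mice lay above the CT range, and the lowest C26-TDCA mouse fell just inside it. Bysl rose by 0.74 (SE 0.09, 1.67-fold; edgeR adjusted p = 1.93e-07) in C26 and by 0.59 (SE 0.09; edgeR adjusted p = 5.47e-06) in C26-TDCA. Rrp12 (ENSMUSG00000035049, chr19:41862851-41896173, minus strand), which serves in the export of both subunits from the nucleus, ranged from 4.38 to 8.70 CPM in CT (median 7.22), from 9.53 to 13.1 CPM in C26 (median 11.3) and from 7.97 to 10.9 CPM in C26-TDCA (median 9.30). The C26 mice were all above CT, whereas C26-TDCA overlapped CT. The rise of Rrp12 was 0.72 (SE 0.12; edgeR adjusted p = 1.57e-05) in C26 and 0.44 (SE 0.12; edgeR adjusted p = 0.00332) in C26-TDCA. Its call beyond 0.5 in C26 was lost when C26 mouse 03, 05, 07 or 08 or CT mouse 01, 02 or 06 was left out, which left 2 members beyond that size. Removal of the trend with length and GC ended the calls of Bysl and Rrp12 beyond 0.5, with Rrp12 at 0.46 in C26 and at 0.24, not called, in C26-TDCA. Tsr1, a late maturation factor, was at 10.0 ± 1.11 CPM in CT (SD, n = 6) and 13.4 ± 2.94 CPM in C26 (SD, n = 8), a rise of 0.42 (SE 0.12; edgeR adjusted p = 0.00322).

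Utp20 (ENSMUSG00000004356, chr10:88746607-88826804, minus strand), a very large scaffold of the early small-subunit particle, was the lower gene of this group. It ranged from 19.2 to 24.3 CPM in CT (median 22.9), from 13.9 to 21.2 CPM in C26 (median 17.7) and from 16.3 to 23.9 CPM in C26-TDCA (median 20.3). The groups overlapped, the difference in C26 was -0.34 (SE 0.10; edgeR adjusted p = 0.00407), and that in C26-TDCA, -0.16 (SE 0.10), was not called but was called lower with the trend removed (-0.36) and with library totals (-0.46). Utp4, Utp15, Wdr43 and Wdr75 belong to the complex that binds the precursor first, and none of the 4 was called in C26 (-0.19 to 0.13). Without C26 mouse 01, Utp4 was called higher (0.17; 0.21 with upper-quartile factors) and Utp15 lower (-0.23), and Utp15 was also called without C26 mouse 03 (-0.22) or CT mouse 06 (-0.22). Nop14, another early factor, was at 0.18 (SE 0.09) and was called without C26 mouse 01 (0.21) and with upper-quartile factors (0.25). Rrp9, a protein of the U3 snoRNP, fell from 8.14 ± 0.734 CPM in CT (SD, n = 6) to 6.54 ± 0.542 CPM in C26-TDCA (SD, n = 8; edgeR adjusted p = 0.0112), and was at 7.56 ± 1.31 CPM in C26 (SD, n = 8), where it was not called (-0.10) except with the trend removed (-0.22) and with library totals (-0.44).

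Of the 11 genes for the large subunit, 4 were higher in C26, 1 was lower and 6 were not called. Rrs1 (ENSMUSG00000061024, chr1:9545408-9547455, plus strand), which helps to place a ribonucleoprotein of the large subunit, ranged from 11.7 to 15.7 CPM in CT (median 13.5), from 17.3 to 25.01 CPM in C26 (median 20.2) and from 17.2 to 23.6 CPM in C26-TDCA (median 20.03). Every tumour-bearing mouse was above every CT mouse. The rise was 0.60 (SE 0.09, 1.52-fold; edgeR adjusted p = 1.79e-06) in C26 and 0.56 (SE 0.09; edgeR adjusted p = 5.3e-06) in C26-TDCA. Rrp1b, a nucleolar protein related to a yeast processing factor, ranged from 6.10 to 7.57 CPM in CT (median 6.32) and from 7.81 to 10.1 CPM in C26 (median 9.60). The groups did not overlap, and the rise was 0.51 (SE 0.09; edgeR adjusted p = 2.5e-05), or 0.30 with the trend removed. Nop16, a nucleolar protein of the early large subunit, rose by 0.43 (SE 0.09). Nle1, which serves the remodelling enzyme Mdn1 on the large subunit, rose by 0.50 (SE 0.17) from a low 3.10 ± 0.632 CPM in CT (SD, n = 6), and was not called once the trend was removed (0.36).

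Bop1 was the called gene of this group that was lower in C26. Bop1, which forms the PeBoW complex with Pes1 and Wdr12, ranged from 21.4 to 26.6 CPM in CT (median 24.1), from 17.5 to 24.1 CPM in C26 (median 20.4) and from 16.9 to 20.99 CPM in C26-TDCA (median 18.1). C26 overlapped CT, and every C26-TDCA mouse was below every CT mouse. The difference was -0.22 (SE 0.08; edgeR adjusted p = 0.017) in C26, which was not called without CT mouse 07 (-0.19), with upper-quartile factors (-0.15) or with only the 2 groups fitted (-0.19) and was at -0.41 with the trend removed, and -0.38 (SE 0.08; edgeR adjusted p = 0.000171) in C26-TDCA. Its partners Pes1 (0.04, SE 0.07) and Wdr12 (-0.03, SE 0.09) were not called in C26. Nop2, a methyltransferase of the large ribosomal RNA, was at 0.14 (SE 0.08; called at 0.21 with upper-quartile factors), Ebna1bp2 at 0.04 (SE 0.07) and Gnl3, the GTPase nucleostemin, at 0.06 (SE 0.07), none of them called with TMM. Noc2l, a nucleolar complex protein, was at -0.06 (SE 0.06) in C26, not called with TMM but called lower with the trend removed (-0.26), and at -0.16 (SE 0.06; edgeR adjusted p = 0.0193) in C26-TDCA, a call that was lost without CT mouse 06 (-0.14) and with upper-quartile factors (-0.11) and stood at -0.28 with the trend removed.

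The 5 multifunctional nucleolar proteins held the most abundant members. Ncl, or nucleolin, was at 165 ± 17.1 CPM in CT (SD, n = 6), 169 ± 11.0 in C26 (SD, n = 8) and 168 ± 12.2 in C26-TDCA (SD, n = 8), and its difference in C26 was 0.03 (approximate 95% interval -0.10 to 0.17). Per kb of the transcript chosen for each gene, Npm1 stood at 61.9 CPM per kb in CT, Ncl at 20.1, and Nop10 and Fbl at 19.8 each. The order of these genes depends on that choice, since the transcript used was 8202 bases long for Ncl and 1633 for Npm1. Mybbp1a, a nucleolar partner of transcription factors, ranged from 37.4 to 46.5 CPM in CT (median 41.4) and from 50.5 to 59.6 CPM in C26 (median 56.5). The groups did not overlap, and Mybbp1a rose by 0.42 (SE 0.07; edgeR adjusted p = 7.15e-06), or by 0.19 with the length and GC trend removed. Ddx21, an RNA helicase, ranged from 33.7 to 46.1 CPM in CT (median 39.7) and from 40.2 to 52.9 CPM in C26 (median 48.4). It overlapped and rose by 0.27 (SE 0.07; edgeR adjusted p = 0.00286), with the opposite sign under library totals (-0.066). Npm1, or nucleophosmin, a histone and ribosomal protein chaperone, ranged from 90.4 to 108 CPM in CT (median 102), from 74.1 to 105 CPM in C26 (median 87.5) and from 78.5 to 101 CPM in C26-TDCA (median 83.9). The ranges overlapped, and its fall of -0.21 (SE 0.07; edgeR adjusted p = 0.0183) was not called with upper-quartile factors (-0.14) or with the length and GC trend removed (-0.04). In Npm1 40.9% of 50-base stretches occur in other genes too. Nolc1, a chaperone of snoRNPs, was at 0.03 (SE 0.08), and its 8 C26 mice lay closer together (29.0 to 31.4 CPM) than the CT mice (24.2 to 36.4 CPM).

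Myc (ENSMUSG00000022346, chr15:61985391-61990374, plus strand), the transcription factor of the set, differed more between CT mice than between groups. The 6 CT mice had 1.30, 10.0, 4.93, 47.0, 2.30 and 9.87 CPM (mice 01, 02, 05, 06, 07 and 08). The C26 mice ranged from 4.83 to 9.17 CPM (median 6.54) and the C26-TDCA mice from 4.42 to 7.94 CPM (median 6.89), so that both tumour groups lay inside the CT range. The coefficient of variation of Myc was 137% in CT, 23.3% in C26 and 17.9% in C26-TDCA, while the next most variable member in CT, Rrp12, had 21.9%. The log2 fold change of Myc was -0.97 (SE 0.46; edgeR adjusted p = 0.0737) in C26 and -0.94 (SE 0.46; edgeR adjusted p = 0.0823) in C26-TDCA, neither called. CT mouse 06 set this value: without it the differences were 0.20 (SE 0.31) and 0.23 (SE 0.31), and the CT mean fell from 12.6 to 5.68 CPM. Leaving out CT mouse 01, 05 or 07 instead gave a call of lower Myc in C26 (-1.20, -1.14 and -1.19) and in C26-TDCA (-1.18, -1.11 and -1.16), as did library totals (-1.31 and -1.25). In CT mouse 06 other early response genes, looked at after the Myc values were seen, were not high as a group: Jun (4.45 CPM) and Junb (9.03) were the lowest of the CT mice, Egr1 (1.17) next to the lowest and Fos (0.736) next to the highest. CT mouse 01, with the lowest Myc, had the highest Fos (2.69), Jun (57.6), Egr1 (63.2) and Junb (79.3) among CT mice.

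**Figure D3:**
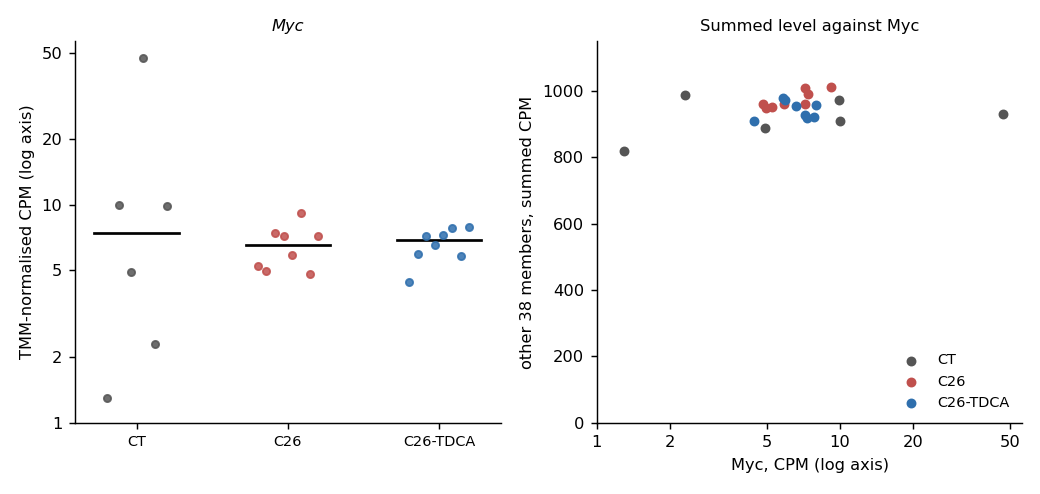
Left, Myc in each mouse of CT (n = 6), C26 (n = 8) and C26-TDCA (n = 8) as TMM-normalised CPM on a log axis, with the median as a line; right, the summed CPM of the other 38 members against Myc in the same mice. The CT mice spread from 1.30 to 47.0 CPM while both tumour groups stay between 4.42 and 9.17, and CT mouse 01, lowest in Myc, is also lowest in the sum, while CT mouse 07, next lowest in Myc, has the highest sum of CT.

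With TMM scaling, the members as a sum, in which Ncl and Npm1 weigh most, changed little across mice. The 39 members together took 822 to 991 CPM in CT (median 950), 954 to 1021 CPM in C26 (median 969) and 915 to 986 CPM in C26-TDCA (median 949), and the ranges overlapped. A second measure was the median log2 ratio of the 38 members other than Myc to their CT means. It ran from -0.17 to 0.11 in CT, 0.06 to 0.19 in C26 and -0.01 to 0.11 in C26-TDCA. Under library totals the median log2 fold change of the members was -0.29 in C26 and -0.28 in C26-TDCA. CT mouse 01 had the lowest sum of all 22 mice, and CT mouse 07, with the next lowest Myc, had the highest sum of CT. CT mouse 06, with the highest Myc, had 980 CPM, of which Myc itself made up 47.0. The median coefficient of variation of the members was 10.5% in CT, 11.1% in C26 and 9.24% in C26-TDCA, beside 10.2%, 13.6% and 12.0% for the 9916 tested genes at a mean of 3 to 200 CPM. In CT the least variable member was Ebna1bp2 at 3.66%, and in C26 it was Nolc1 at 2.48%.

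In C26-TDCA against CT, which uses the same CT mice, 11 members were higher, 6 were lower and 22 were not called, where 28.7% of all genes were called higher and 28.2% lower (57% in either direction). Library totals gave 3 higher and 22 lower, and removal of the length and GC trend gave 10 and 10. Beyond a log2 fold change of 0.5 stood Nop58, upward, and Nop10, downward (13.5% and 10.6% of all genes, 24% in all). Every C26-TDCA mouse was above every CT mouse for Nop58, Tsr1 and Rrs1 and below for Nop10 and Bop1 (15.4% and 16.2% of all genes). The lower members were Dkc1, Nop10, Rrp9, Bop1, Noc2l and Npm1. Higher were Polr1a (0.40), Polr1e (0.39), Nop58 (0.73), Rrp12 (0.44), Tsr1 (0.43), Bysl (0.59), Nop16 (0.38), Rrs1 (0.56), Rrp1b (0.40), Ddx21 (0.27) and Mybbp1a (0.30), of which Ddx21 (-0.042) and Mybbp1a (-0.0041) changed sign with library totals. With the length and GC trend removed, Polr1a (0.12), Rrp12 (0.24) and Mybbp1a (0.11) were not called, Rrp1b was at 0.20 and Ddx21 at 0.17. The fall of Npm1 was not called either (-0.15), while Polr1b (-0.17), Ubtf (-0.20), Utp15 (-0.26), Utp20 (-0.36) and Nolc1 (-0.24) were called lower. Polr1c (0.15, SE 0.10), Nhp2 (0.18, SE 0.11) and Nle1 (0.23, SE 0.17) were not called here, beside 0.25, 0.26 and 0.50 in C26, and Nhp2 was called with the trend removed (0.22). Gar1, at 0.30 (SE 0.14), was called only without C26-TDCA mouse 06 (0.38) or CT mouse 02 (0.35), with upper-quartile factors (0.34) and with the trend removed (0.34). Nop56 was called lower only without CT mouse 01 (-0.21) and with library totals (-0.46).

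TDCA given to tumour-bearing mice changed none of the 39 members past the threshold. In C26-TDCA against C26, edgeR called 0 members in either direction and DESeq2 also called 0, where 1.73% of all genes were called higher and 0.237% lower (1.97% in either direction). An unadjusted p under 0.05 was found for 4 of the 39 members, beside 15.8% of all genes tested. In 0 members did all mice of one group lie beyond the other, beside 0.0947% of genes upward and 0.0541% downward, and 0% of genes were beyond 0.5. The smallest adjusted p among the members was 0.182. The 4 with the lowest unadjusted p were all lower: Rrp12 at -0.28 (approximate 95% interval -0.50 to -0.07), Nop10 at -0.17 (-0.30 to -0.04), Bop1 at -0.16 (-0.30 to -0.02) and Rrp9 at -0.21 (-0.40 to -0.02). Fold changes ranged from -0.28 to 0.18, with Utp20 the highest (0.18, interval 0.01 to 0.35; -0.04 with the length and GC trend removed), and 31 of 39 were below 0 with a median of -0.06, beside -0.01 for all genes. For 37 members the interval lay within 0.5 on either side of 0, and it was wider for Nle1 (-0.58 to 0.03) and Myc (-0.84 to 0.89).

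**Figure D4:**
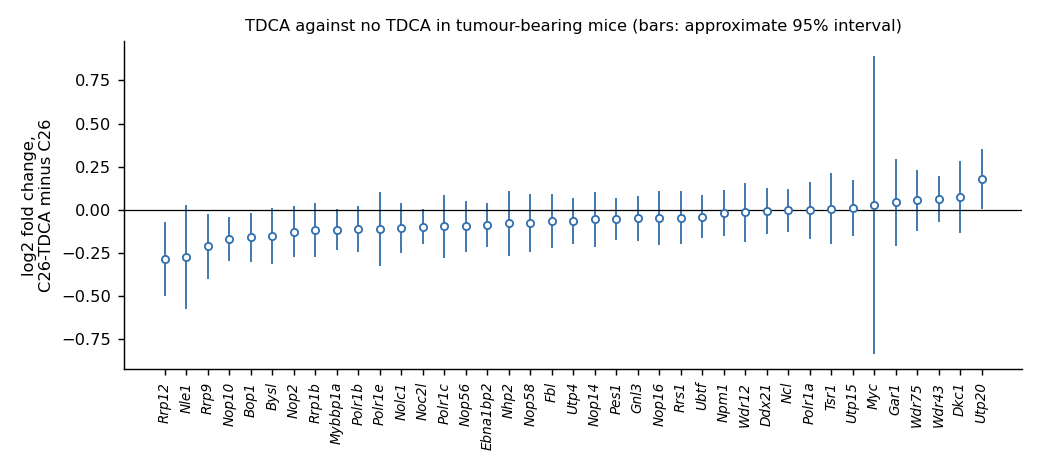
Log2 fold change of each of the 39 members in C26-TDCA minus C26 (n = 8 each), ordered by value, with approximate 95% intervals and open points because none passed the threshold. Values run from -0.28 for Rrp12 to 0.18 for Utp20, and the interval of Myc reaches from -0.84 to 0.89.

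The other genes of the process were taken from 6 lists by role with 170 names. Of the 167 tested, 44 were higher in C26 than in CT, 35 were lower and 88 were not called, with a median of 0.02 and with 11 higher and 110 lower under library totals. Over all genes tested, 28.9% were called higher and 29.2% lower, the shares to set beside this count and each list count below. Among 15 genes of RNA polymerase I and its initiation factors, 3 were higher and 3 lower. Polr2l, a subunit shared by the polymerases, rose from 18.4 ± 1.91 CPM in CT (SD, n = 6) to 27.1 ± 3.16 CPM in C26 (SD, n = 8), and the selectivity factor subunit Taf1c rose by 0.83 (SE 0.20). Rrn3, which makes the polymerase competent to start, went from 19.5 ± 2.70 CPM in CT (SD, n = 6) to 15.9 ± 1.16 CPM in C26 (SD, n = 8; -0.29, SE 0.07; edgeR adjusted p = 0.00138), and Taf1a changed by -0.51 (SE 0.12). RNA polymerase III, which makes a further ribosomal RNA, had 4 higher and 9 lower genes of 21. Its subunits Polr3d (0.86, SE 0.09) and Polr3a (-0.58, SE 0.09) went opposite ways.

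Of 49 further genes for the small subunit, 13 were higher and 6 lower. Heatr1, a member of the complex that holds Utp4 and Utp15, rose from 19.98 ± 1.13 CPM in CT (SD, n = 6) to 43.5 ± 4.97 CPM in C26 (SD, n = 8), a log2 fold change of 1.12 (SE 0.09; edgeR adjusted p = 1.5e-10). The lowest C26 mouse had 37.4 CPM and the highest CT mouse 21.5. Nob1, the nuclease of the last cut, rose by 0.59 (SE 0.10), while Imp3 (-0.47, SE 0.11) and Krr1 (-0.30, SE 0.06) were lower. Of 57 large-subunit genes tested, 15 were higher and 11 lower. Gnl2, a GTPase related to Gnl3, rose from 27.1 ± 1.64 CPM in CT (SD, n = 6) to 58.3 ± 5.09 CPM in C26 (SD, n = 8; 1.11, SE 0.08; edgeR adjusted p = 7.72e-12), and the processing factor Pelp1 rose by 0.97 (SE 0.10). Nmd3, the export adaptor of the large subunit, fell from 28.3 ± 1.68 CPM in CT (SD, n = 6) to 17.7 ± 1.76 CPM in C26 (SD, n = 8; -0.68, SE 0.09; edgeR adjusted p = 4.9e-07), and Sbds, which acts in the last step on the large subunit, changed by -0.57 (SE 0.08).

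The 12 tested genes that assemble snoRNPs held the largest difference of these lists. Rpap3, a co-chaperone that loads the core proteins of box C/D particles, rose from 10.9 ± 0.940 CPM in CT (SD, n = 6) to 44.9 ± 6.79 CPM in C26 (SD, n = 8) and 46.2 ± 5.07 CPM in C26-TDCA (SD, n = 8), a log2 fold change of 2.04 (SE 0.10; edgeR adjusted p = 1.24e-14) in C26. Shq1, the chaperone of Dkc1 before it joins the particle, rose by 1.08 (SE 0.14; edgeR adjusted p = 6.9e-07), whereas Znhit6, another box C/D assembly factor, changed by -0.69 (SE 0.12). In this list 5 genes were higher and 2 lower. Of 13 genes of the RNA exosome, which trims the precursor, 4 were higher and 4 lower, with Exosc3 at 0.54 (SE 0.09; 0.19 and not called with library totals) and Exosc8 at -0.61 (SE 0.11).

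**Figure D5:**
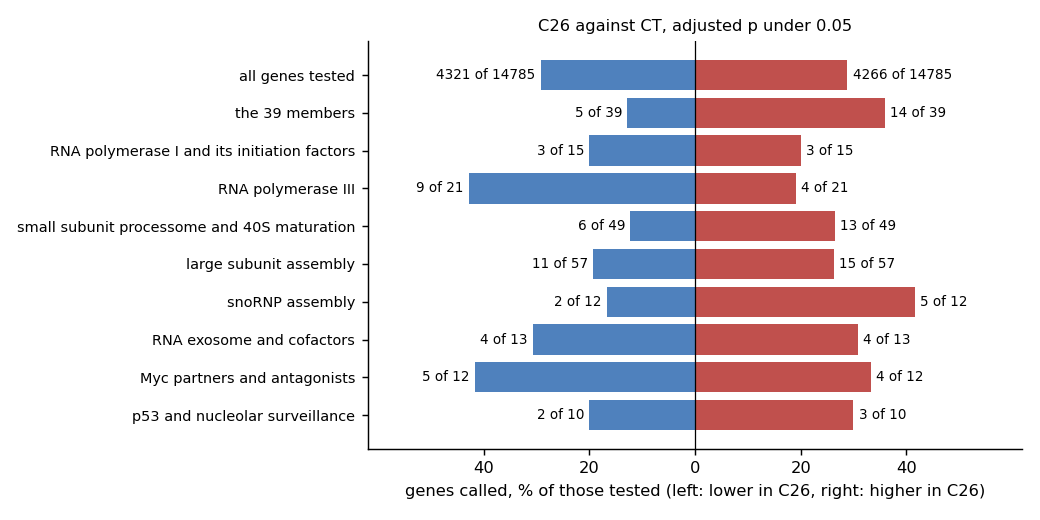
Share of tested genes called higher (right, red) or lower (left, blue) in C26 against CT at an adjusted p under 0.05, for all genes, the 39 members and each list of related genes, with counts beside the bars. Most lists have genes on both sides, and with library totals in place of TMM the members would show 4 higher and 23 lower.

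Of 12 partners and antagonists of Myc, 4 were higher and 5 lower in C26. Max, the partner with which Myc binds DNA, was called at 0.29 (SE 0.06; edgeR adjusted p = 0.000336), with -0.05 under library totals. Mxi1, which competes with Myc for Max, fell from 19.5 ± 1.32 CPM in CT (SD, n = 6) to 13.1 ± 1.27 CPM in C26 (SD, n = 8; -0.58, SE 0.07; edgeR adjusted p = 9.41e-08). Mycl, a relative of Myc, fell from 7.68 ± 2.06 CPM in CT (SD, n = 6) to 3.32 ± 1.25 CPM in C26 (SD, n = 8) and 2.23 ± 0.703 CPM in C26-TDCA (SD, n = 8; -1.22, SE 0.21, in C26; edgeR adjusted p = 2.88e-05). Of 10 genes of p53 and nucleolar surveillance, 3 were higher and 2 lower. Cdkn1a, the cell cycle inhibitor p21, ranged from 0.299 to 1.19 CPM in CT and from 4.26 to 38.3 CPM in C26, with no overlap (4.38, SE 0.68; edgeR adjusted p = 5.71e-06), and Mdm4, an inhibitor of p53, was at -0.50 (SE 0.12).

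Of these lists, 5 genes were called in C26-TDCA against C26, a comparison in which 1.97% of all genes tested were called. Bdp1, a subunit of an initiation factor of RNA polymerase III, was at 10.3 ± 2.75 CPM in C26 and 17.8 ± 3.63 CPM in C26-TDCA (SD, n = 8 each; 0.78, SE 0.15; edgeR adjusted p = 0.0143). Mga, which also binds Max, was at 24.3 ± 6.12 and 37.7 ± 8.15 CPM (SD, n = 8 each; 0.63, SE 0.15; edgeR adjusted p = 0.0259), and Mdm4 at 40.9 ± 7.97 and 56.9 ± 8.93 CPM (SD, n = 8 each; 0.48, SE 0.11; edgeR adjusted p = 0.0255). Telo2, a co-chaperone, was at 8.01 ± 0.512 and 6.12 ± 0.657 CPM (SD, n = 8 each; -0.39, SE 0.08; edgeR adjusted p = 0.018). Nol6, of the small subunit particle, was at 26.2 ± 1.98 and 21.4 ± 2.61 CPM (SD, n = 8 each; -0.29, SE 0.07; edgeR adjusted p = 0.0276). None of the 5 was called once the length and GC trend was removed, and those of Mga, Mdm4 and Nol6 were not called with only the 2 groups fitted. Leaving out C26 mouse 05 or 06 or C26-TDCA mouse 03 or 04 ended each of these 3 calls, as did leaving out C26-TDCA mouse 06 for Mga and Mdm4, C26 mouse 08 or C26-TDCA mouse 02 for Mga and Nol6, and C26 mouse 07 or C26-TDCA mouse 07 for Nol6. The values in those fits were 0.57 to 0.63 for Mga, 0.42 to 0.47 for Mdm4 and -0.29 to -0.25 for Nol6.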

How the data were processed

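The authors deposited raw read counts per Ensembl gene, 1 column per mouse. The submitters' processing notes name HISAT2 2.2.1, featureCounts 2.0.3, Trimmomatic 0.40, bcl2fastq 2.17 and DESeq2 1.42.0, and the build GRCm38. Strand setting, annotation release and treatment of multi-mapped reads were not given in the sources used here. Counts of the 17 members whose exons overlap a gene on the opposite strand, and of the 4 with over 10% of 50-base stretches shared with other genes (Fbl, Npm1, Nop56 and Pes1), are therefore less certain. The 17 are Polr1a, Nop56, Dkc1, Nhp2, Wdr43, Nop14, Rrp9, Tsr1, Bysl, Bop1, Wdr12, Pes1, Rrp1b, Nle1, Gnl3, Noc2l and Mybbp1a.

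Genes were kept by filterByExpr (minimum count 10), scaled by TMM and fitted in edgeR 4.0.16 as 1 model with a mean per group over all 22 libraries. The quasi-likelihood F test was adjusted by Benjamini-Hochberg over 14785 genes at 0.05, and glmTreat tested a log2 fold change of 0.5. Standard errors were derived from F and the log2 fold change, and approximate 95% intervals from them. In simulated data for C26 against CT, the fit recovered 53% of 100 genes changed 1.5-fold and 80% of 100 changed 2-fold. It made 8 false calls with 14546 genes run. These were the only genes changed in the simulation, whereas 58.1% of genes were called in the data. The adjustment was therefore stricter in the simulation, and its shares recovered may not hold for the data. A member that was not called may still differ. In each role group the 2 members with the lowest p, and those called against most of their group, are given by the values of the mice, with up to 3 called genes per direction of each further list; some are not reported here. The members and lists were chosen with earlier results of these data known. Each mouse is 1 library, and nothing says how the mice were housed or processed in batches.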

Additional observations from a re-analysis of the deposited data

Results flagged for a closer look

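A mouse was singled out where its gap to the nearest of the others, relative to the range of its group, passed Dixon's 95% critical value; chance alone gives about 1 in 20 groups, and 8 of 117 groups of the 39 members were singled out. Myc in CT mouse 06 was at 47.0 CPM, with the next CT mouse at 10.0. The others were far closer to their groups. Rrp1b in CT mouse 02 was at 7.57 CPM (next 6.56), Pes1 in C26 mouse 06 at 29.6 (next 25.2) and Wdr43 in C26 mouse 03, the lowest, at 20.1 (next 21.8). In C26-TDCA, Utp15 in mouse 04 was at 13.1 CPM (next 11.2), Bop1 in mouse 01 at 20.99 (next 18.5), Nle1 in mouse 02 at 4.88 (next 3.95) and Bysl in mouse 07, the lowest, at 12.9 (next 14.6).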

How the results depend on the processing

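Scaling mattered most. With library totals, members higher or lower numbered 4 and 23 in C26 and 3 and 22 in C26-TDCA (beyond 0.5: 0 and 3, and 0 and 3), further ribosome biogenesis genes 11 and 110, and 8 and 109, and 1 of these was lower in C26-TDCA than in C26; the median of the members was -0.29 and -0.28. Signs then turned in C26 for Polr1b (-0.23), Polr1c (-0.10), Ubtf (-0.31), Fbl (-0.31), Nhp2 (-0.081), Utp4 (-0.21), Wdr75 (-0.31), Pes1 (-0.30), Nop2 (-0.20), Ebna1bp2 (-0.30), Gnl3 (-0.29), Ncl (-0.31), Ddx21 (-0.066) and Nolc1 (-0.31), and in C26-TDCA for Utp4 (-0.24), Wdr43 (-0.27), Nop2 (-0.30), Gnl3 (-0.30), Ncl (-0.28), Ddx21 (-0.042) and Mybbp1a (-0.0041); sign changes of values called in neither fit are not listed. Upper-quartile factors left 3 members lower in C26. With the length and GC trend removed, 1 member was beyond 0.5 in C26, 10 were lower in C26-TDCA, 0 further genes were called in either direction in C26-TDCA against C26, and Ubtf was lower in C26 (-0.20). With only the 2 groups fitted, 1 further gene was lower in C26-TDCA than in C26. DESeq2 size factors and no filter kept all 18 counts of members and further genes within 1.5 times, and DESeq2 the 12 counts it gives, which leave out those beyond 0.5; over all genes in C26-TDCA against C26, 1.73% were higher and 0.237% lower, beside 2.85% and 0.719% with DESeq2, 0.295% and 0.0288% with only the 2 groups, 0.0677% and 0.0338% with the trend removed, 2.19% and 0.108% with library totals, and 0.367 to 3.58% and 0.034 to 0.455% without 1 mouse; the causes were not tested. Fits without 1 mouse gave 12 to 15 members higher and 5 to 6 lower in C26, 11 to 12 and 5 to 8 in C26-TDCA, 2 to 3 and 1 to 2 beyond 0.5 upward, 0 to 0 and 1 to 1 downward, further genes 39 to 48 higher and 32 to 37 lower in C26, 29 to 33 and 35 to 42 in C26-TDCA, and 1 to 1 and 1 to 2 in C26-TDCA against C26. Called under every alternative were 4 of 14 members higher in C26 (Nop58, Bysl, Rrp12, Rrs1) and 3 of 5 lower (Dkc1, Nop10, Utp20), and in C26-TDCA 3 of 11 (Nop58, Bysl, Rrs1) and 4 of 6 (Dkc1, Nop10, Rrp9, Bop1).

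The labels link mice of different groups only by a replicate number and do not say what it stands for. Deviations of same-numbered mice correlated at -0.08 to 0.05 for C26 and CT, -0.01 to 0.13 for C26-TDCA and CT and -0.20 to 0.34 for C26-TDCA and C26. The same-numbered mouse was the best match for C26-TDCA mice 03 (0.34) and 04 (0.21) among C26 mice, and for 01 (0.13), 02 (0.04) and 07 (0.09) among CT mice. In no other pair was it the best match. With the number as a replicate block, 13 members were higher and 4 lower in C26, 11 and 7 in C26-TDCA, and 0 and 0 in C26-TDCA against C26. The block ended the calls of Polr1c (0.23), Nhp2 (0.25) and Bop1 (-0.20) in C26 and gave calls of Nop14 in C26 (0.20) and Utp20 in C26-TDCA (-0.23); it changed no other member's call.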
